A study of Rattus norvegicus with 12 samples.

Results

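Lysosome and autophagy genes were followed in INS-1 832/13 cells, an insulin-secreting rat insulinoma line, after forced expression of ChREBPβ. The set held 33 listed genes for lysosomal factors, membrane proteins, hydrolases and autophagy proteins, together with the 21 genes whose names mark them as subunits of the vacuolar proton pump (names beginning with Atp6v0 or Atp6v1). These 54 genes were chosen by name out of 28727 in the count table, and 48 of them had enough counts to be tested among 14669 tested genes.

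RNA sequencing gave 12 libraries in 4 groups of 3, named a, b and c. The groups were cells transduced with an adenovirus for GFP and kept in 2 mM glucose, GFP in 11 mM, ChREBPβ in 2 mM and ChREBPβ in 11 mM. The study's text gives 48 h in these glucose levels for the sequenced cells, while its general virus methods give a longer time. The ChREBPβ virus carried the mouse protein with an mCherry tag, and every library, controls included, came from cells that had been transduced. ChREBPβ is the short form of the glucose-responsive factor ChREBP that lacks the domain through which low glucose holds it inactive. The comparisons ask what ChREBPβ did at each glucose level, what glucose did under each virus, and whether the ChREBPβ effect differed between glucose levels. The cells are a tumour line transduced with a virus. Nothing in the labels says whether libraries came from separate cultures. For heat maps of these data the study's legend gives averages of 3 independent experiments, without tying single libraries to them. The p-values set differences between groups against the spread between these libraries, and how much of that spread is technical is not known. Fewer cells of a kind and less RNA per cell cannot be told apart in such bulk samples.

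Lysosomes break down proteins, glycans and lipids with acid hydrolases, and the V-ATPase keeps their lumen acid. The factors Tfeb, Tfe3 and Mitf bind short palindromes in the promoters of many lysosomal and autophagy genes, and the kinase mTORC1 at the lysosome surface holds them in the cytoplasm when nutrients are plentiful. In autophagy the Ulk1 kinase starts the membrane, Wipi1 binds the lipid made there, the Atg8 family (Map1lc3 and Gabarap proteins) is coupled to it, and Sqstm1 carries cargo to it. Beta cells also degrade insulin granules in their lysosomes.

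The libraries held 25754488 to 60531215 counts. ChREBPβ targets were higher in libraries labelled ChREBPβ, with a log2 fold change of 1.69 at 2 mM and 1.08 at 11 mM for Pklr. The rat Mlxipl row differed by -0.33 and -0.14. A row named ChREBPb, whose sequence is not given in the sources used here, went from 77.8 to 90.1 CPM at 2 mM (log2 0.21, under the minimum fold used below) and from 68.0 to 88.0 at 11 mM (log2 0.37, called higher). Whether either row counts reads of the mouse transgene is not stated. Beta cell markers were present and moved with the virus. Their summed level was 23180 to 26100 CPM (counts per 1000000, TMM-scaled) in GFP 2 mM, 18840 to 20700 in GFP 11 mM, 12500 to 12910 in ChREBPβ 2 mM and 11810 to 12380 in ChREBPβ 11 mM. With ChREBPβ 7 of 8 markers were lower at both glucose levels, and Slc2a2 was called higher at both (log2 0.50 and 0.46). Macrophage markers, which matter for a lysosome-rich cell, summed to 0.583 to 1.40 CPM with Ptprc and Cd14 at 0 in all libraries, and the fibroblast list summed to 3.80 to 8.81 CPM. Of the 4 alpha cell markers only Gcg was tested. It was abundant, at 1624 CPM in GFP 2 mM and 1657 in GFP 11 mM against 433 and 478 with ChREBPβ, and fell with ChREBPβ (log2 -1.91 and -1.79). The part of the loss of most beta cell markers and of Gcg in the values below was not tested.

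ChREBPβ lowered a set of lysosomal hydrolases at both glucose levels and few genes of the proton pump or of autophagy were called. At 2 mM, 13 of the 48 tested members fell and 3 rose, against 23.2% of all tested genes called lower and 21.0% called higher, so that 27.1% and 6.25% of the members stand beside those shares. At 11 mM, 11 fell and 2 rose (22.9% and 4.17%), against 19.1% of all tested genes called lower and 14.3% called higher. A gene was called when its adjusted p in edgeR's quasi-likelihood test was under 0.05 and its change at least 1.2-fold. Scaling by library totals alone, which put the median of all tested genes at -0.12 at 2 mM and -0.10 at 11 mM, gave 20 falls and 1 rise at 2 mM. The median member changed by -0.14 at 2 mM and -0.05 at 11 mM on the log2 scale, beside -0.02 and -0.02 for all tested genes. The 11 members called lower at 11 mM were all among the 13 called lower at 2 mM (84.6% of these). Those 2 comparisons share no library. Across the 48 members the log2 changes at 2 and 11 mM had the same sign in 38, with Pearson's r of 0.919 and Spearman's rho of 0.883, a description across genes that are not independent of each other. No member reached a 2-fold change in any comparison, and 25 had no call in any of the 4 comparisons between groups. Overlap, shared signs and uncalled genes were not counted over all tested genes, so none is shown to be particular to the members.

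**Figure D1:**
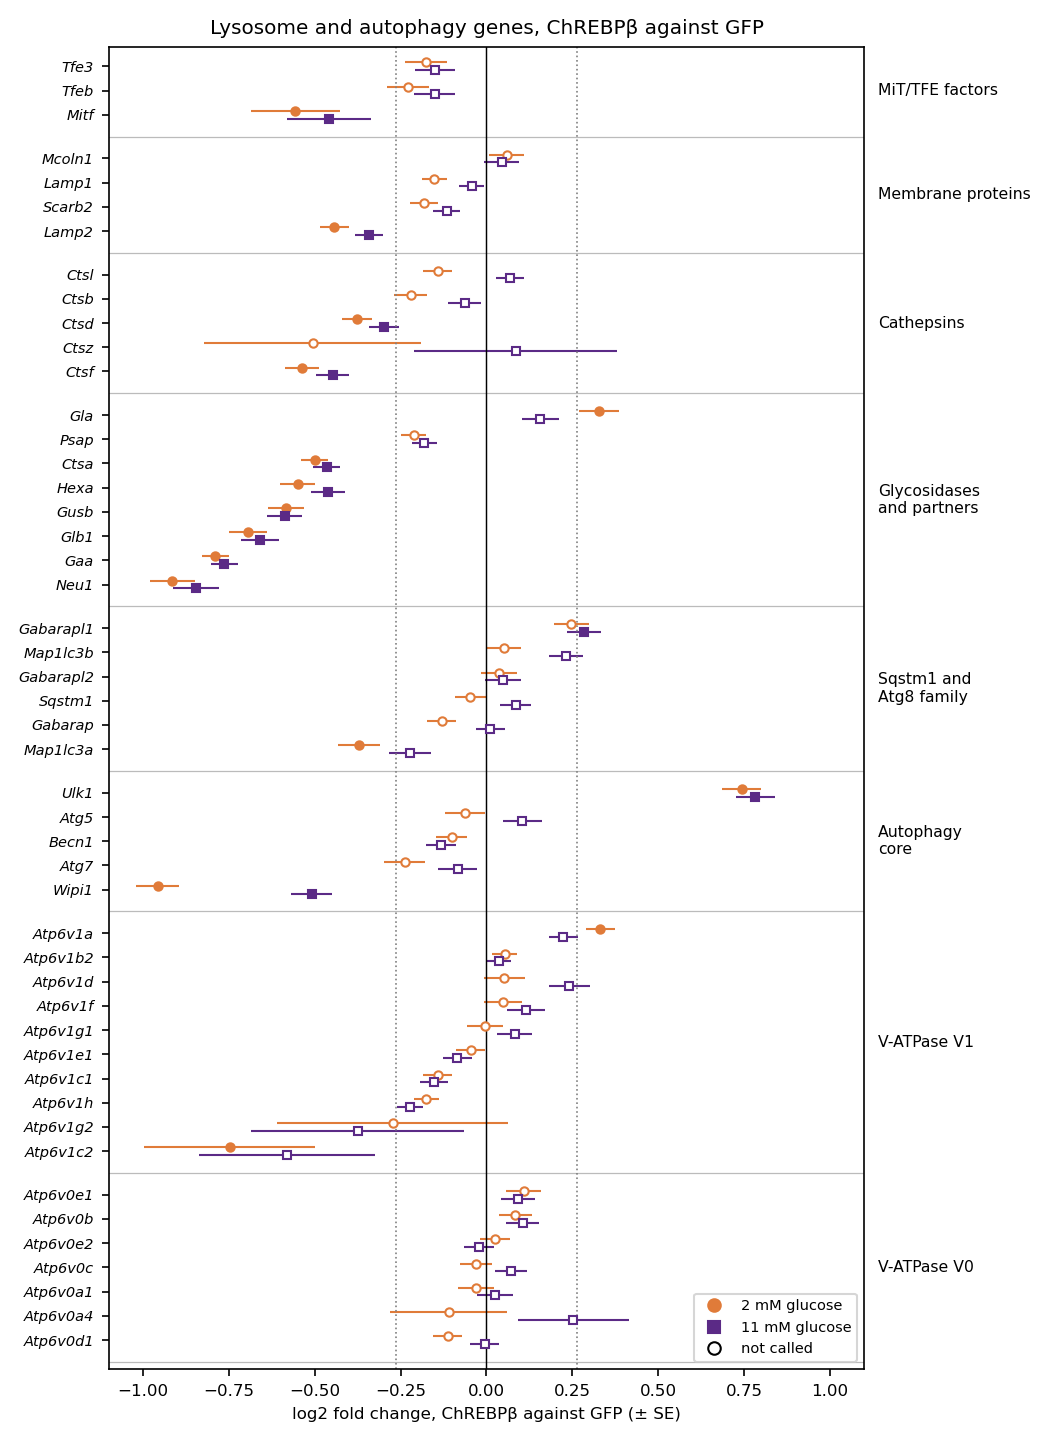
Log2 fold change of ChREBPβ against GFP (± SE) for the 48 tested members, grouped by role, at 2 mM (circles) and 11 mM glucose (squares), with filled points called and dotted lines at a 1.2-fold change. Glycosidases other than Gla and Psap sit at the left and the V0 subunits of the proton pump near 0, with Ulk1 alone far to the right and Wipi1 far to the left.

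Among the 3 MiT/TFE factors, Mitf was called lower and the others changed by less than the minimum fold. That is 33.3% at each glucose level, beside 23.2% and 19.1% of all tested genes called lower. Mitf, the melanocyte member of the family, had 6.50, 7.29 and 8.17 CPM in the GFP 2 mM libraries and 4.76, 5.28 and 4.87 with ChREBPβ. At 11 mM it had 6.22, 8.30 and 6.60 CPM with GFP and 4.69, 4.82 and 5.80 with ChREBPβ. The groups did not overlap at either level. It fell by 0.56 on the log2 scale (SE 0.13, adjusted p = 0.000993, edgeR) at 2 mM and by 0.46 (SE 0.12, adjusted p = 0.00398) at 11 mM.

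Tfeb, the main driver of lysosome gene expression in many cells, stood at 27.5, 29.1 and 32.3 CPM in GFP 2 mM and at 24.1, 26.5 and 25.1 in ChREBPβ 2 mM. At 11 mM it was at 27.8, 27.1 and 27.5 CPM with GFP and at 24.1, 25.4 and 24.7 with ChREBPβ. Every ChREBPβ library lay under every GFP library at the same glucose, yet the log2 changes of -0.23 (edgeR adjusted p = 0.00357) and -0.15 (edgeR adjusted p = 0.0433) were under the minimum fold. The first passed that minimum, at -0.28 and -0.26, when GFP 2 mM library a or ChREBPβ 2 mM library b was left out, and at -0.33 with library totals. Tfe3 showed 23.3, 24.4 and 25.3 CPM in GFP 2 mM against 21.7, 21.2 and 21.8 in ChREBPβ 2 mM. Its 11 mM values were 23.5, 21.3 and 21.0 CPM with GFP and 20.2, 19.5 and 19.7 with ChREBPβ, and its log2 changes were -0.17 and -0.15. None of the 3 factors was called for glucose under either virus, with changes from -0.15 to 0.03.

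The sequence these factors are known for has the core CACGTG, an E-box that ChREBP with its partner Mlx also reads, as a pair spaced by 5 bases. The core is its own reverse complement, so 1 strand covers both. RefSeq promoters on GRCr8, from 250 bases before to 50 after the gene start, were found for 44 of the 54 members. Ctsb, Hexa, Psap, Map1lc3a, Becn1, Atp6v0d2, Atp6v0e2, Atp6v1b2, Atp6v1c1 and Atp6v1h had no entry. CACGTG was in 9 of the 44 (20.5%), beside 6.42% of all 33469 promoters of this length and 8.86% of the 11439 promoters of tested genes. The longer palindrome TCACGTGA, which contains the core, was in 5 of the 44 (11.4%), beside 0.777% and 1.53%. No member's window had 2 exact copies of the core at a spacing of 5. Only 1 of all 33469 promoters and 0 of the 11439 did, so this exact search cannot set the members apart. Of the members called lower with ChREBPβ at 2 mM that had a promoter, 4 of 11 held the core (Gaa, Glb1, Ctsd and Ctsf), and of those not called 5 of 25 did (Lamp1, Mcoln1, Atg5, Atp6v0d1 and Atp6v0e1). Neu1, Gusb, Ctsa, Lamp2, Wipi1, Mitf and Atp6v1c2 were called lower and had a promoter without it. None of the 3 called higher held it. These letters are a description and no evidence of binding.

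The windows around the core are shown for hydrolases that fell with ChREBPβ and for genes of the same organelle that were not called, with the core in capitals and each read 5′ to 3′ on the strand of the gene. They lie at chr10:105028265-105028314 (+) for Gaa, chr8:122963593-122963642 (+) for Glb1, chr1:206968822-206968871 (-) for Ctsd, chr1:211581999-211582048 (+) for Ctsf, chr12:6358208-6358257 (+) for Mcoln1, chr19:50357274-50357323 (-) for Atp6v0d1 and chr16:83075094-83075253 (-) for Lamp1. All are upstream of the start that the table uses, which for Gaa, Mcoln1 and Lamp1 lies inside the annotated span of the gene.
Gaa: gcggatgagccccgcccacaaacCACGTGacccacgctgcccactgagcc
Glb1: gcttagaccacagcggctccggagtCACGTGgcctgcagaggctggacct
Ctsd: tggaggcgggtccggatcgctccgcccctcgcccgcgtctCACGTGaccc
Ctsf: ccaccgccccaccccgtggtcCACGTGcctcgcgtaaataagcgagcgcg
Mcoln1: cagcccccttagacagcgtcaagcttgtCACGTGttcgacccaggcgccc
Atp6v0d1: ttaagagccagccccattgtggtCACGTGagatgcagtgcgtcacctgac
Lamp1: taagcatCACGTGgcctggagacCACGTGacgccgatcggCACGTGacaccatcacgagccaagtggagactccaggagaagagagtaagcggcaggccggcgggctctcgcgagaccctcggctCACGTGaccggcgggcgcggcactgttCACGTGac
The Lamp1 window, of 160 bases, held 5 copies, more than any other member's promoter. The other 6 windows, of 50 bases, held 1 each. Outside the windows shown, Ctsd had a further core at -157 from the start and Mcoln1 had one at 5, the latter within TCACGTGA.

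The glycosidases and their partners held more calls than any other role. Of the 8 in this group, 6 fell at 2 mM (Neu1, Gaa, Glb1, Gusb, Hexa and Ctsa) and the same 6 at 11 mM. That is 75% at each level, beside 23.2% and 19.1% of all tested genes called lower. Gla rose at 2 mM. The group's median was -0.57 with ChREBPβ in 2 mM and -0.53 in 11 mM on the log2 scale. Its summed level went from 2437 to 2540 CPM in GFP 2 mM to 1786 to 1846 in ChREBPβ 2 mM.

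Neu1, the sialidase that trims sialic acid from glycoproteins, had 53.1, 52.7 and 55.8 CPM in GFP 2 mM and 30.0, 25.2 and 30.8 in ChREBPβ 2 mM. At 11 mM it had 36.1, 32.7 and 35.2 CPM with GFP and 19.9, 18.9 and 19.2 with ChREBPβ. All 3 ChREBPβ libraries lay under all 3 GFP libraries at each glucose level. Neu1 was 1.88-fold lower with ChREBPβ in 2 mM glucose (log2 -0.91, SE 0.07, adjusted p = 4.04e-10, edgeR) and 1.80-fold lower in 11 mM (log2 -0.84, SE 0.07, adjusted p = 2.32e-09, edgeR). Sialidase works in the lysosome in a complex with Glb1 and Ctsa, and all 3 genes fell.

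Glb1, the beta-galactosidase of that complex, stood at 48.5, 52.7 and 52.6 CPM in GFP 2 mM and at 32.4, 29.4 and 33.4 in ChREBPβ 2 mM. In 11 mM it was at 41.9, 41.5 and 42.6 CPM with GFP and at 25.5, 27.4 and 27.0 with ChREBPβ, again without overlap. The log2 changes were -0.69 (SE 0.06) and -0.66 (SE 0.06). Ctsa, the protective protein that keeps the other members of the complex stable, averaged 279 ± 7.94 CPM in GFP 2 mM, 198 ± 3.02 in ChREBPβ 2 mM, 226 ± 6.76 in GFP 11 mM and 164 ± 3.63 in ChREBPβ 11 mM (mean ± SD, n = 3 each), with log2 changes of -0.50 and -0.47.

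Gaa, the acid alpha-glucosidase that digests glycogen inside lysosomes, was at 792, 802 and 854 CPM in GFP 2 mM and at 478, 457 and 481 in ChREBPβ 2 mM. The 11 mM libraries read 629, 620 and 618 CPM with GFP and 373, 368 and 359 with ChREBPβ. The 4 groups were fully separated, with the lowest values where ChREBPβ and 11 mM glucose came together. Gaa fell 1.73-fold at 2 mM (log2 -0.79, SE 0.04, adjusted p = 1.05e-12, edgeR) and 1.70-fold at 11 mM (log2 -0.76, SE 0.04, adjusted p = 2.57e-12, edgeR). The windows above place a core E-box upstream of both Gaa and Glb1, while the promoters of Neu1, Gusb and Ctsa, which also fell, held none.

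Gusb, the beta-glucuronidase that acts on glycosaminoglycans, fell by 0.58 at 2 mM and by 0.59 at 11 mM on the log2 scale. Hexa, the alpha subunit of the hexosaminidase that degrades ganglioside GM2, changed by -0.55 and -0.46. Gla, the alpha-galactosidase A of globotriaosylceramide breakdown, moved the other way. It had 33.5, 31.2 and 30.0 CPM in GFP 2 mM against 40.6, 37.4 and 40.9 in ChREBPβ 2 mM, a log2 change of 0.33 (SE 0.06, adjusted p = 6.66e-05, edgeR) without overlap, though library totals left it at 0.23 and uncalled. The 11 mM values of Gla were 36.2, 35.6 and 37.7 CPM with GFP and 38.7, 41.4 and 42.1 with ChREBPβ, a log2 change of 0.16 that was not called. Psap, the precursor of the saposins that present lipids to the hydrolases, had 1022, 1055 and 1038 CPM in GFP 2 mM and 892, 895 and 902 in ChREBPβ 2 mM, and 962, 893 and 944 against 811, 837 and 822 at 11 mM. Its changes of -0.21 and -0.18 were under the minimum fold.

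**Figure D2:**
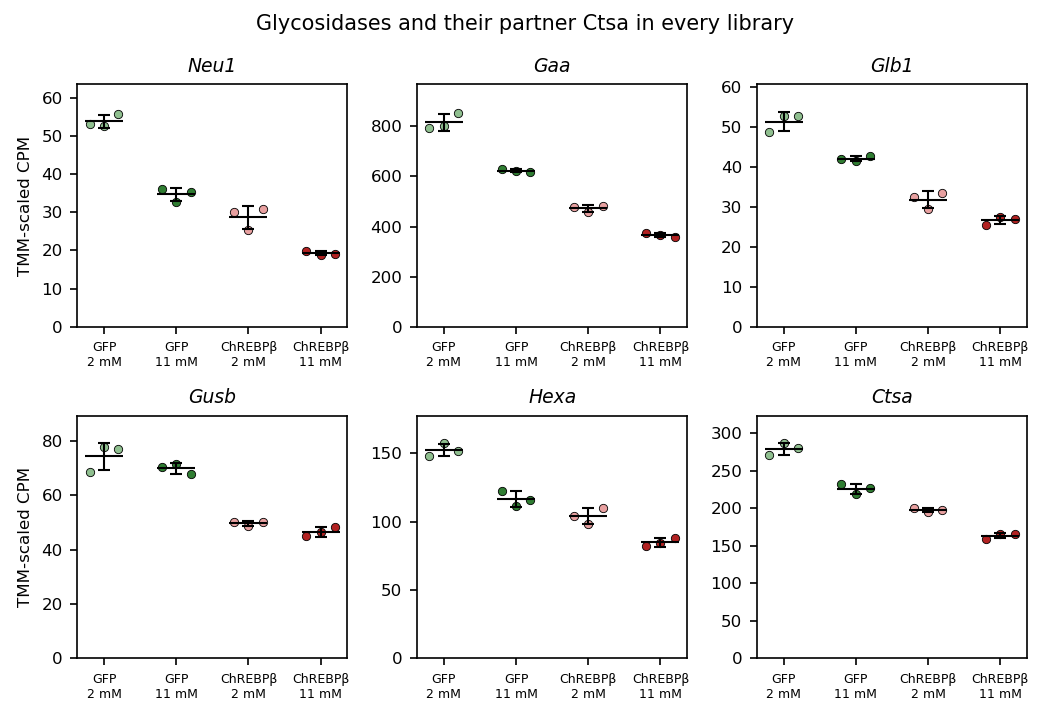
TMM-scaled CPM of 6 lysosomal genes in each library (points), with the mean and SD of the 3 libraries per group (bars), on axes that start at 0. For each gene all ChREBPβ libraries lie under all GFP libraries at the same glucose, and each gene has its lowest mean in ChREBPβ 11 mM.

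Of the 5 cathepsins tested, Ctsd and Ctsf fell at both glucose levels and Ctsb, Ctsl and Ctsz were not called. That is 40% at each level, beside 23.2% and 19.1% of all tested genes called lower. Ctsa, which is cathepsin A, was counted with the glycosidases and their partners above. Ctsd, the main aspartic protease of lysosomes, had 644, 684 and 710 CPM in GFP 2 mM against 524, 507 and 541 in ChREBPβ 2 mM. At 11 mM it read 633, 588 and 602 CPM with GFP and 478, 499 and 506 with ChREBPβ, so that the groups stayed apart. The log2 changes were -0.38 (SE 0.04, adjusted p = 4.12e-07, edgeR) and -0.30 (SE 0.04, adjusted p = 1.17e-05, edgeR). Ctsf, a cysteine protease, averaged 165 ± 6.09 CPM in GFP 2 mM, 114 ± 5.38 in ChREBPβ 2 mM, 135 ± 5.71 in GFP 11 mM and 99.3 ± 4.70 in ChREBPβ 11 mM (mean ± SD, n = 3 each), with log2 changes of -0.54 and -0.45. Both genes carry a core E-box in the windows above, as do Lamp1 and Mcoln1, which were not called with ChREBPβ.

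Ctsb and Ctsl, the most widely used cysteine proteases, changed by -0.22 and -0.14 at 2 mM and by -0.06 and 0.07 at 11 mM. Ctsz had under 1.2 CPM in every library, and its values of -0.51 and 0.08 had standard errors of 0.32 and 0.30. Ctsh had no count in any library, which at these depths allows up to 0.0512 to 0.11 CPM (3 counts, counting error only), and Ctss, a protease of immune cells, was at 0 to 0.05 CPM. Neither was tested.

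Of the 4 membrane proteins, Lamp2 fell at both glucose levels and Lamp1, Scarb2 and Mcoln1 were not called with ChREBPβ. That is 25% at each level, near the 23.2% and 19.1% of all tested genes called lower. Lamp2, which also takes part in chaperone-mediated autophagy, averaged 207 ± 5.53 CPM in GFP 2 mM, 153 ± 5.80 in ChREBPβ 2 mM, 162 ± 5.08 in GFP 11 mM and 128 ± 0.724 in ChREBPβ 11 mM (mean ± SD, n = 3 each). Its log2 changes were -0.44 (SE 0.04, adjusted p = 1.65e-08, edgeR) and -0.34 (SE 0.04, adjusted p = 8.83e-07, edgeR). Lamp1, its abundant relative, had 684, 695 and 691 CPM in GFP 2 mM and 631, 600 and 633 in ChREBPβ 2 mM, a log2 change of -0.15. The 11 mM values of Lamp1 overlapped, with 580, 561 and 584 CPM in GFP and 543, 560 and 570 in ChREBPβ. Scarb2, the receptor that brings glucocerebrosidase to the lysosome, changed by -0.18 and -0.12, and Mcoln1, its calcium channel, by 0.06 and 0.04.

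The autophagy core genes split. Ulk1 rose and Wipi1 fell at both glucose levels, and Atg5, Atg7 and Becn1 were not called. At each level 20% of this role was called higher and 20% lower. Of all tested genes, 21.0% were called higher and 23.2% lower at 2 mM, and 14.3% and 19.1% at 11 mM. Ulk1 had 97.7, 93.3 and 99.2 CPM in GFP 2 mM and 164, 154 and 167 in ChREBPβ 2 mM. The 11 mM libraries had 90.3, 103 and 95.8 CPM with GFP and 180, 160 and 157 with ChREBPβ. Every ChREBPβ library was at least 154 CPM and every GFP library at most 103. Ulk1 was 1.67-fold higher at 2 mM (log2 0.74, SE 0.06, adjusted p = 1.02e-09, edgeR) and 1.72-fold higher at 11 mM (log2 0.78, SE 0.06, adjusted p = 5.29e-10, edgeR), the largest rise of any member in both comparisons.

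Wipi1, the phosphoinositide-binding protein of the forming autophagosome, was the member that fell furthest at 2 mM. It had 29.3, 26.6 and 28.7 CPM in GFP 2 mM and 13.7, 15.0 and 14.6 in ChREBPβ 2 mM. At 11 mM it read 21.0, 20.8 and 21.9 CPM with GFP and 15.1, 15.1 and 14.5 with ChREBPβ. The ChREBPβ libraries spanned 13.7 to 15.1 CPM over both glucose levels, and the GFP libraries of the 2 levels did not overlap. Wipi1 was 1.94-fold lower at 2 mM (log2 -0.96, SE 0.06, adjusted p = 8.37e-11, edgeR) and 1.42-fold lower at 11 mM (log2 -0.51, SE 0.06, adjusted p = 8.26e-07, edgeR).

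Atg7, the enzyme that activates Atg8 proteins, changed by -0.24 at 2 mM and -0.08 at 11 mM, and Atg5 of the conjugation complex by -0.06 and 0.10. Becn1, a subunit of the lipid kinase that feeds Wipi1, had 104, 112 and 109 CPM in GFP 2 mM and 100, 102 and 100 in ChREBPβ 2 mM. Its 11 mM libraries had 109, 106 and 110 CPM with GFP and 101, 101 and 93.5 with ChREBPβ. The log2 changes of Becn1, -0.10 and -0.13, were under the minimum fold.

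In the Atg8 family, Map1lc3a fell at 2 mM and Gabarapl1 rose at 11 mM, and neither was called at the other level. With Sqstm1 this role had 6 genes, 16.7% called lower at 2 mM and 16.7% higher at 11 mM. The shares of all tested genes were 23.2% and 14.3%. Map1lc3a, which codes for an LC3 protein, went from 49.7 ± 3.80 to 38.5 ± 1.19 CPM at 2 mM (mean ± SD, n = 3 each, log2 -0.37, SE 0.06, adjusted p = 3.49e-05, edgeR) and changed by -0.22 at 11 mM. That 11 mM change passed the minimum fold, at -0.28 and -0.31, without GFP 11 mM library b and with library totals, and was then called. Gabarapl1 had 150, 133 and 144 CPM in GFP 11 mM and 163, 173 and 185 in ChREBPβ 11 mM, a log2 change of 0.28 (SE 0.05, adjusted p = 9.03e-05, edgeR). The GFP 2 mM libraries of Gabarapl1 had 130, 136 and 136 CPM and the ChREBPβ 2 mM libraries 158, 157 and 162, a change of 0.25 just under the minimum. Leaving out GFP 11 mM library b or ChREBPβ 11 mM library c took the 11 mM change to 0.24 and 0.23, under that minimum, as did upper quartile factors (0.25) and library totals (0.20).

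Map1lc3b changed by 0.05 and 0.23, Gabarapl2 by 0.04 and 0.05 and Gabarap by -0.13 and 0.01, with none called. Members of this family are alike in sequence, and how reads matching several genes were counted is not given in the sources used here. Sqstm1, the cargo receptor p62, had 623, 641 and 648 CPM in GFP 2 mM and 606, 609 and 636 in ChREBPβ 2 mM. At 11 mM it read 602, 535 and 575 CPM with GFP and 576, 622 and 620 with ChREBPβ. The groups overlapped at both levels, and its changes were -0.05 (95% interval -0.14 to 0.04) and 0.09 (95% interval -0.0024 to 0.17).

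**Figure D3:**
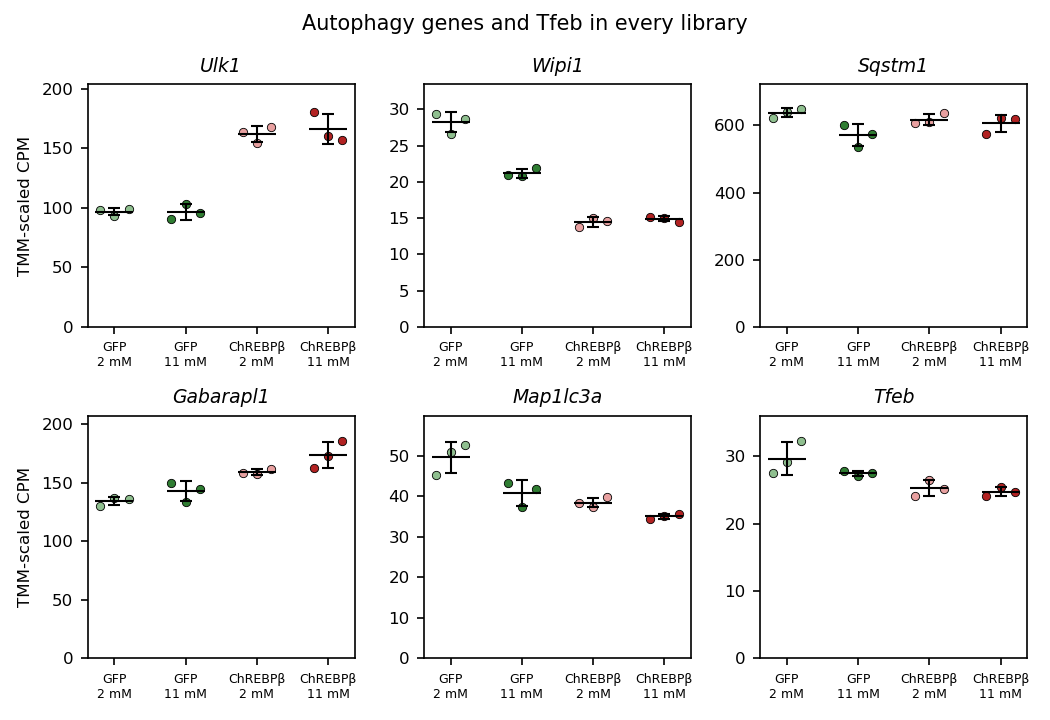
TMM-scaled CPM of 5 autophagy genes and Tfeb in each library (points), with the mean and SD of the 3 libraries per group (bars), on axes that start at 0. Ulk1 separates by virus, Wipi1 is near 15 CPM in all ChREBPβ libraries and differs with glucose in GFP, and Sqstm1 overlaps between groups.

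Few genes of the proton pump were called with ChREBPβ. Of the 17 tested, 5.88% were called higher and 5.88% lower at 2 mM, beside 21.0% and 23.2% of all tested genes. At 11 mM both shares were 0%, beside 14.3% and 19.1%. Of the 10 V1 subunits tested, which form the ATP-splitting head, Atp6v1a rose and Atp6v1c2 fell at 2 mM, and none was called at 11 mM by edgeR or DESeq2 (6 had an unadjusted p under 0.05), while scaling by library totals called Atp6v1h and Atp6v1c2 lower. Leaving out single libraries made calls in both directions at 11 mM. Atp6v1d was then called higher without GFP 11 mM library a (0.29) or ChREBPβ 11 mM library a (0.28), and Atp6v1c2 lower without GFP 2 mM library c (-0.58). Of the 7 V0 subunits tested, which form the proton channel in the membrane, none was called in any comparison, and their changes ran from -0.11 to 0.11 at 2 mM and from -0.02 to 0.25 at 11 mM. At an unadjusted p under 0.05 there were 2 V0 genes at 2 mM and 1 at 11 mM, and DESeq2 called none either. All 21 genes together summed to 3138 to 3309 CPM in GFP 2 mM and 3182 to 3298 in ChREBPβ 2 mM, and to 2925 to 3006 and 2990 to 3111 at 11 mM, so the ranges overlapped. The 14 subunits with a mean over 10 CPM changed by -0.17 (Atp6v1h) to 0.33 (Atp6v1a) at 2 mM.

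Atp6v1a, the catalytic subunit of the head, had 255, 247 and 235 CPM in GFP 2 mM and 317, 300 and 310 in ChREBPβ 2 mM, a log2 change of 0.33 (SE 0.04, adjusted p = 1.49e-06, edgeR) that library totals put at 0.23 and left uncalled. In 11 mM the libraries read 250, 270 and 256 CPM with GFP and 310, 301 and 295 with ChREBPβ, and the change of 0.22 was under the minimum fold. Atp6v1b2, its partner in the catalytic ring, was not called, with 437, 441 and 451 CPM in GFP 2 mM, 465, 443 and 471 in ChREBPβ 2 mM, 400, 391 and 405 in GFP 11 mM and 404, 408 and 412 in ChREBPβ 11 mM. Its changes were 0.05 and 0.04 (95% intervals -0.02 to 0.13 and -0.04 to 0.11). Atp6v0c, the ring subunit that carries protons, had 546, 563 and 632 CPM in GFP 2 mM, 568, 562 and 576 in ChREBPβ 2 mM, 537, 516 and 544 in GFP 11 mM and 542, 559 and 576 in ChREBPβ 11 mM, with changes of -0.03 and 0.07.

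Atp6v1c2 is a minor form of the C subunit, and its call rests on few counts. It had 2.09, 2.36 and 1.19 CPM in GFP 2 mM, 1.00, 1.00 and 1.32 in ChREBPβ 2 mM, 1.15, 1.18 and 1.25 in GFP 11 mM and 0.94, 0.77 and 0.68 in ChREBPβ 11 mM. The 2 mM groups overlapped, and the log2 change of -0.75 (SE 0.25, adjusted p = 0.0147, edgeR) was lost without GFP 2 mM library a or b or ChREBPβ 2 mM library b, at adjusted p of 0.0515, 0.115 and 0.0628. The abundant form Atp6v1c1 changed by -0.14. Atp6v1b1, Atp6v1e2 and Atp6v0d2, forms known from kidney, testis and bone, were at or under 0.32 CPM and untested, and Atp6v1g3 had no count in any library.

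Further genes of the same pathways were counted in the same way. Of 44 tested further lysosomal genes, 22 fell and 5 rose with ChREBPβ at 2 mM (50% and 11.4%). At 11 mM, 23 fell and 4 rose (52.3% and 9.09%). Their median log2 changes at 2 and 11 mM were -0.34 and -0.26. Of all tested genes, 23.2% were called lower and 21.0% higher at 2 mM, and 19.1% and 14.3% at 11 mM. The fall furthest from 0 at 2 mM was that of Galns, a sulfatase of keratan sulfate breakdown (-1.26). The activator Gm2a (-0.80 and -0.63), which works with Hexa on GM2, fell too, as did Idua (-0.96 and -0.97) and the sorting receptor Sort1 (-0.96 and -0.96). The mannose-6-phosphate receptor Igf2r (0.45 and 0.49) and the cholesterol exporter Npc1 (0.32 and 0.29) rose.

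Of 39 tested further autophagy genes, 4 fell and 2 rose at 2 mM (10.3% and 5.13%), with a median of -0.02. At 11 mM, 3 fell and 2 rose (7.69% and 5.13%), with a median of -0.01. Each of these shares lay under that of all tested genes. The receptor Tax1bp1 (0.39 and 0.33) and the fusion adaptor Plekhm1 (0.34 and 0.35) rose, and Atg10 (-0.38 and -0.35), Atg4a (-0.31 and -0.36) and the mitophagy receptor Fundc1 (-0.34 and -0.35) fell. Of 10 genes for assembly and accessory partners of the pump, 4 fell at 2 mM (Dmxl2, Dmxl1, Rogdi and Rnasek, with Dmxl2 at -0.62) and 2 at 11 mM, and none rose. The falls are 40% and 20% of that list, beside 23.2% and 19.1% of all tested genes. Of 17 tested genes for mTORC1, its lysosomal anchors and linked factors, 3 rose and 1 fell at each level (17.6% and 5.88%). Of all tested genes, 21.0% were called higher and 23.2% lower at 2 mM, and 14.3% and 19.1% at 11 mM. Fnip2 (0.83 and 0.64) and the GTPase Rragd (0.46 and 0.42), both on the folliculin arm that acts on Tfeb and Tfe3, rose. On the same arm Flcn (0.15 and 0.36) was called higher at 11 mM only, and Fnip1 (-0.02 and 0.02) was not called. Foxo1, a factor that drives autophagy genes, fell (-0.53 and -0.37).

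**Figure D4:**
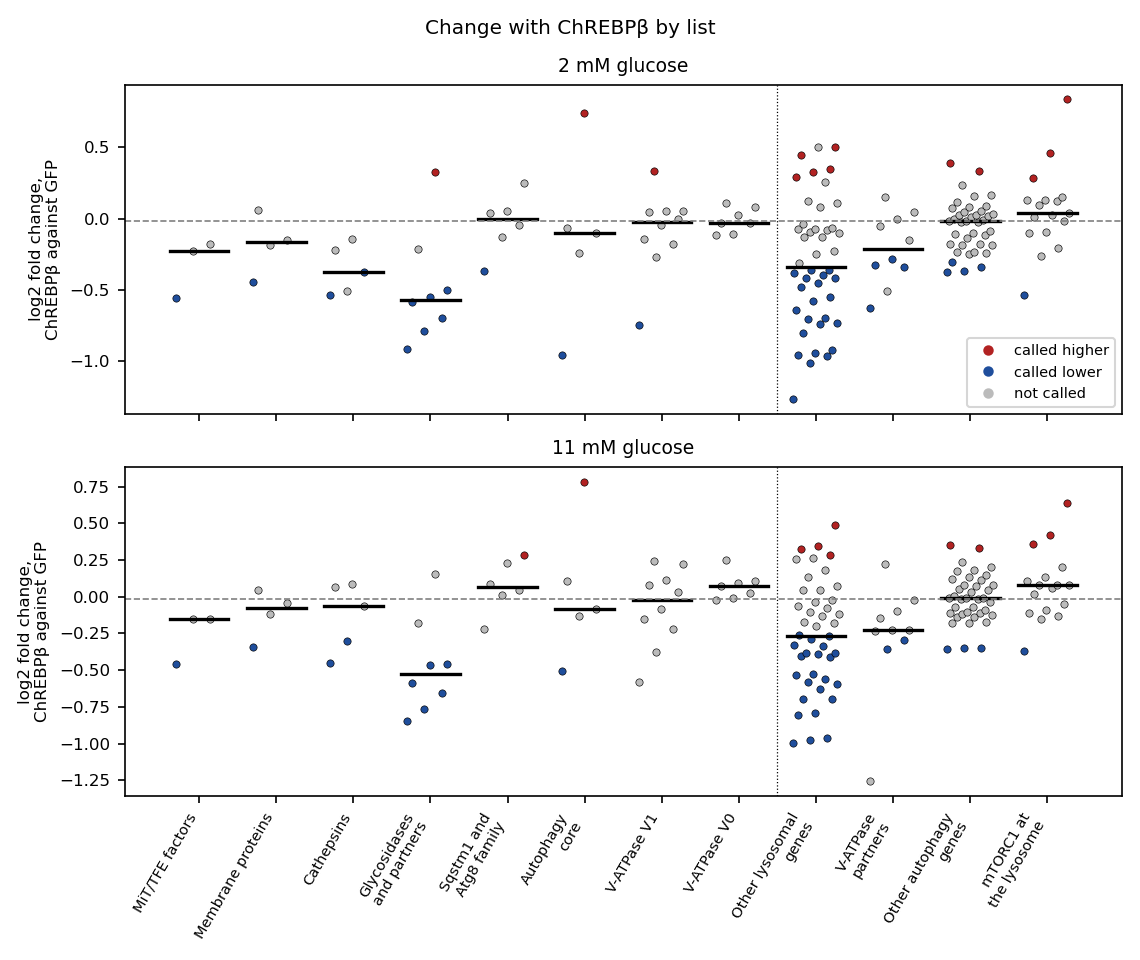
Log2 fold change of ChREBPβ against GFP at 2 mM (top) and 11 mM glucose (bottom) for each tested gene (points, coloured by call) in the 8 role groups left of the dotted line and 4 further lists right of it, with a bar at each median and a dashed line at the median of all tested genes. Glycosidases have the lowest median at both glucose levels, and the V-ATPase subunits and further autophagy genes centre near 0.

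Glucose on its own lowered members in the GFP cells and raised none. In 11 against 2 mM, 16 of 48 fell and 0 rose (33.3% and 0%), against 10.0% of all tested genes called lower and 10.2% called higher. DESeq2 called none higher either, and at an unadjusted p under 0.05 1 member, Gla, was higher. The median member changed by -0.16 and the median of all tested genes by -0.0024. In the ChREBPβ cells 5 of 48 fell and 0 rose (10.4% and 0%), against 2.88% and 0.988%, with medians of -0.10 and 0.003. DESeq2 again called none higher, and at an unadjusted p under 0.05 1, Gabarapl1, was higher. The GFP 2 mM libraries serve in both the glucose comparison and the ChREBPβ comparison at 2 mM, so values of these 2 are given side by side only.

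Neu1, Gaa, Hexa, Ctsa and Mcoln1 fell with glucose under both viruses, which makes all 5 of the ChREBPβ calls and 31.2% of the 16 in GFP. Those 2 comparisons share no library. Neu1, at 52.7 to 55.8 CPM in GFP 2 mM and 32.7 to 36.1 in GFP 11 mM, changed by -0.63 (SE 0.07, adjusted p = 4.01e-07, edgeR), and by -0.56 (SE 0.07, adjusted p = 2.35e-05, edgeR) in the ChREBPβ cells. Gaa changed by -0.39 and -0.37, Hexa by -0.39 and -0.30 and Ctsa by -0.31 and -0.27. Mcoln1, which was not called with ChREBPβ, was at 84.7, 86.8 and 89.1 CPM in GFP 2 mM and 68.9, 64.0 and 68.8 in GFP 11 mM. With ChREBPβ it was at 92.4, 85.1 and 94.1 CPM in 2 mM and 68.1, 66.6 and 73.4 in 11 mM, so glucose separated the groups under each virus (log2 -0.37 and -0.38).

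The other falls called in GFP were in every role but the MiT/TFE factors and the V0 subunits. They were Atp6v1c2 (-0.66), Wipi1 (-0.41), Ctsl (-0.40), Lamp2 (-0.35), Atp6v1d (-0.33), Gabarap (-0.31), Map1lc3b (-0.31), Glb1 (-0.29), Map1lc3a (-0.28), Ctsf (-0.28) and Lamp1 (-0.26). The Atp6v1c2 groups overlapped and its adjusted p was 0.0471 (edgeR). That call was lost when any of 9 single libraries was left out, at an adjusted p of 0.0524 to 0.254, the last at -0.44 without GFP 2 mM library b. Lamp1 lay at the 1.2-fold limit and fell under it when any of 8 single libraries was left out. Map1lc3a did so without GFP 2 mM library b or c or GFP 11 mM library b (-0.26, -0.24 and -0.22), and Ctsf without GFP 2 mM library c or GFP 11 mM library b (-0.25 and -0.25). In the ChREBPβ cells Lamp2 (-0.25), Glb1 (-0.25) and Ctsl (-0.19) had adjusted p under 0.05 but less than the minimum fold. Glb1 was called lower without ChREBPβ 2 mM library b (-0.31) or ChREBPβ 11 mM library b (-0.27) and Lamp2 without ChREBPβ 2 mM library b (-0.28), and both were with library totals (-0.27 each). The Hexa call there was lost at -0.25 without ChREBPβ 2 mM library c, and that of Ctsa at -0.26 and -0.25 without ChREBPβ 2 mM library a or 11 mM library a. Gusb, which fell with ChREBPβ, was not called for glucose (-0.09 and -0.09), and neither was Ulk1 (-0.004 and 0.04).

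**Figure D5:**
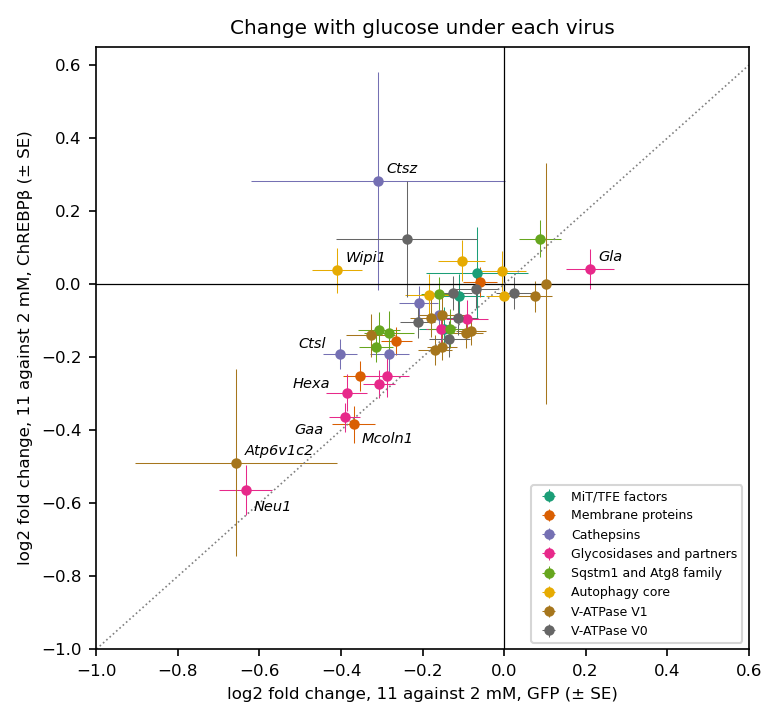
Log2 fold change of 11 against 2 mM glucose in GFP cells (horizontal) and in ChREBPβ cells (vertical) for the 48 tested members, with standard errors and colours by role, and a dotted line where both are equal. Most points lie in the lower left with Neu1, Gaa, Hexa and Mcoln1 near the dotted line, and Wipi1 lies above it.

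In these 2 comparisons the log2 changes had the same sign in 38 of 48 members, with r of 0.676 and rho of 0.641 as a description across genes. This too was not worked out over all tested genes. Of the further lysosomal genes 16 of 44 fell with glucose in GFP (36.4%) and 12 in the ChREBPβ cells (27.3%), and none rose. Among all tested genes 10.0% were called lower in GFP and 2.88% in the ChREBPβ cells. Of the further autophagy genes 6 fell and 1 rose in GFP (15.4% and 2.56%), and 4 fell in the ChREBPβ cells (10.3%). For rises in GFP the share of all tested genes was 10.2%. Among the mTORC1 genes 4 of 17 (23.5%) fell under each virus. They were Flcn (-0.69 and -0.49), Fnip1 (-0.50 and -0.47), Foxo3 (-0.42 and -0.29) and Rragd (-0.41 and -0.45). Rragd thus fell with glucose and rose with ChREBPβ.

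The ChREBPβ effect was tested for a difference between glucose levels, as an interaction in the same fit. Of the 48 members 1 differed, against 1.56% of all tested genes called higher and 4.74% called lower. That was Wipi1, whose fall with ChREBPβ was smaller at 11 mM by 0.45 on the log2 scale (SE 0.09, adjusted p = 0.00275, edgeR). The same value is the difference between its glucose effects, -0.41 in GFP and 0.04 in the ChREBPβ cells. Ctsl had a difference of 0.21 (SE 0.06, adjusted p = 0.0290, edgeR), which was less than the minimum fold. For the hydrolases that fell most the intervals of the difference were -0.11 to 0.25 for Neu1, -0.08 to 0.13 for Gaa and -0.12 to 0.19 for Glb1, and for Ulk1 -0.12 to 0.20.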

How the data were processed

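Total RNA was amplified before sequencing, and the authors deposited whole-number read counts per gene for 12 libraries. The submitters' processing notes name the rat build Rnor 6.0 and edgeR; the aligner and counter are not given in the sources used here. The deposited table also repeats the group means, which were not used. Counts of amplified RNA are not independent molecules, and the floors cover counting error only. The intervals came from the standard errors of the edgeR fit, which take in the spread between libraries.

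Counts from all 12 libraries (25754488 to 60531215) were fitted together in edgeR 4.0.16 (R 4.3.3), with group as the only factor, the default expression filter, TMM factors, quasi-likelihood tests and Benjamini-Hochberg adjustment over 14669 genes. A call needed an adjusted p under 0.05 and a 1.2-fold change. CPM values are TMM-scaled. The code was tested on simulated data. The row with no gene name (0.0043 to 0.00601% of counts) was left out.

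The members and all lists were chosen with earlier results of these data known, so no test was run over a list. Values in every library are given for Tfeb, Tfe3, Mitf, Sqstm1 and Lamp1, for the 3 called members that rose or fell most with ChREBPβ or changed most with glucose in GFP, for calls on the difference, and for the member with the highest mean CPM per role. That last choice replaces CPM per length, since no transcript lengths were at hand, and levels of different genes were not compared. Other members were given values in every library where the text turned on them, after their values were seen. Alternatives were DESeq2 1.42.0, other scalings, filters and fold limits, the replicate letter as a block, the compared groups alone, and each library left out. Promoter sequences came from RefSeq (GRCr8).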

Additional observations from a re-analysis of the deposited data

Results flagged for a closer look

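The ChREBPβ effect on Wipi1 differed between the glucose levels by 0.45 on the log2 scale, by the interaction term of the edgeR fit (SE 0.09, adjusted p = 0.00275). It was called under each of the 12 fits that left out a library and by DESeq2. Wipi1 fell by 0.41 with glucose in the 3 GFP libraries and changed by 0.04 in the ChREBPβ libraries, where it stood near 15 CPM throughout. The cause was not tested.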

How the results depend on the processing

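No member's call was reversed. DESeq2, RLE factors and a minimum of 10 counts in every library left each call as it was. Without a minimum fold the calls numbered 29 (ChREBPβ at 2 mM), 25 (ChREBPβ at 11 mM), 29 (glucose with GFP), 15 (glucose with ChREBPβ) and 2 (difference), in place of 16, 13, 16, 5 and 1, and with a 2-fold minimum 0 in each. The members' median went to -0.20 at 2 mM and -0.086 at 11 mM with upper quartile factors, and to -0.24 and -0.14 with library totals. At 2 mM library totals called 21 members and upper quartile factors 20, adding Tfeb, Ctsb, Psap and Atg7 under both. The cause was not tested beyond the shift of all genes. Leaving out single libraries gave 15 to 16 calls at 2 mM, 12 to 14 at 11 mM, 12 to 15 for glucose with GFP, 4 to 7 for glucose with ChREBPβ and 1 for the difference. Where an arm then had 2 libraries, the spread came from all groups. No clear pairing by replicate letter was seen: of 18 same-letter pairs none had a correlation over 0.1 (-0.11 to 0.07). Of the 12 libraries, 6 correlated best with their own letter. With 3 libraries per group this check cannot show that same-letter libraries were prepared apart. With the letter as a replicate block the counts were 16, 13, 15, 5 and 1, the only call lost being Atp6v1c2 for glucose with GFP (-0.64, adjusted p = 0.0652, edgeR). For glucose with GFP there were also 15 calls without the filter, where Lamp1 lost its call (-0.26), and 15 with the compared groups alone. Depth limits Ctsz, Atp6v1c2, Atp6v1g2 and the untested members, all near or under 2 CPM.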
